A study of Mus musculus with 16 samples.

Results

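The 8 Ago2-IP libraries from juxtaglomerular (JG) cells fell on both sides of a level of 5000 CPM (gene counts scaled to the library total) of Gm10800, a predicted mouse gene whose sequence resembles satellite repeats, and the 4 libraries above that level were compared with the 4 below it. They were chosen by the count of Gm10800 over the total of each library and by no other value. The high libraries were control replicate 4 and miR-106b replicates 1, 2 and 3, and the low libraries were control replicates 1, 2 and 3 and miR-106b replicate 4. The series has 16 libraries, 8 of them Ago2-IP, and the split crosses both transfections. Gm10800 stood at 7705 CPM in miR-106b replicate 3, the high library nearest to the threshold, and at 1647 CPM in control replicate 3, the nearest low one. The highest Gm10800 level was 15036 CPM in miR-106b replicate 2 and the lowest 225 CPM in control replicate 2. Because the division was drawn from values of these same libraries, high against low is described here and is not tested, and nothing below is drawn from Gm10800 itself, which still counts as 1 gene in the totals over all genes and over all coding genes.

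The JG cells, which in the kidney make renin, are an engineered mouse culture that carries YFP driven by the renin promoter. Monolayers received a miRNA precursor, either miR-106b or a control that is not found in mammals, and all were collected after 48 h. From 4 replicate cultures of each transfection polyA RNA was selected with oligo(dT), and 4 further cultures of each were trypsinized and lysed for immunoprecipitation with an Ago2 antibody, after which RNA was taken from the precipitate with no polyA selection. All libraries are single-end and do not record strand. The Ago2-IP libraries held 2579086 to 4616424 counts on genes and the polyA libraries 2815272 to 9459585. A gene with no count in an Ago2-IP library may stand at up to 3 counts, which is 0.650 to 1.16 CPM, for counting error only, since reads carry no molecular identifiers. Ren1, the renin gene, had 0 counts in all 16 libraries, and genes of heart muscle made up 117349 to 129924 CPM of each Ago2-IP library and 27237 to 38267 CPM of each polyA control library, so the counts do not show the defining marker of the labelled cell type, and whether the cells lacked it was not tested.

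Ago2 holds microRNAs and, through them, messenger RNAs in the RNA-induced silencing complex, most of which is in the cytoplasm. Small nucleolar RNAs (snoRNAs) work in the nucleolus, where those with H and ACA boxes guide pseudouridylation and those with C and D boxes guide ribose methylation of ribosomal RNA, and most are cut from introns of host genes. Small Cajal body RNAs (scaRNAs) guide the same changes on the small nuclear RNAs (snRNAs) of the spliceosome, RNase P and RNase MRP process tRNA and ribosomal RNA precursors, and Malat1 is a long RNA kept in nuclear speckles. Most of these short RNAs carry no polyA tail.

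Across the 14897 genes that passed the filter (1 CPM or more in 3 or all 4 replicates of some group), a gene was called higher where all 4 high libraries lay above all 4 low libraries on normalized CPM and the fitted difference was at least 1.5-fold. This held for 428 genes (2.87% of those measured), 1 of them Gm10800, and the reverse for 34 genes (0.228%). With 1 library left out, which leaves fewer values to separate, the higher genes numbered 460 to 672 and the lower 67 to 99. Without the minimum fold, the libraries were separated with the high ones above for 643 genes (4.32%) and with the high ones below for 392 (2.63%). The median log2 difference over all genes was 0.003. Of the 428 genes, 229 code for protein, 44 are snoRNAs, 6 scaRNAs, 10 snRNAs and 5 ribosomal RNAs of the 5S type or alike. Coding genes were higher in 1.72% of 13277 cases, snoRNAs in 84.6% of 52, scaRNAs in 60% of 10 and snRNAs in 58.8% of 17, shares that the filter itself could raise, as counted below.

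The sequences below are those of transcripts whose values are given library by library, except Gm24265, given for control 3 and miR-106b 3 only. They are taken from the transcripts of GENCODE release M21 on GRCm38. The first 3 are H/ACA RNAs, shown with the ACA of the box near the 3′ end in capitals. Snora33 (chr10:23785347-23785475, minus strand) overlaps an annotated exon of the ribosomal protein gene Rps12, Gm26397 (chr8:126944847-126944980, minus strand) lies in an intron of Tomm20, and Snora57 (chr19:8888538-8888685, minus strand) has no host gene on its strand.

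Snora33: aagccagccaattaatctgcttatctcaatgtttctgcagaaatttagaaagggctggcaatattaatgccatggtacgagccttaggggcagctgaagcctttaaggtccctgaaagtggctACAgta

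Gm26397: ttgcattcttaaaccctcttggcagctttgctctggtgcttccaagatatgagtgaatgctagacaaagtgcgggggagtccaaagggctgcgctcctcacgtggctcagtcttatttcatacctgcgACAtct

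Snora57: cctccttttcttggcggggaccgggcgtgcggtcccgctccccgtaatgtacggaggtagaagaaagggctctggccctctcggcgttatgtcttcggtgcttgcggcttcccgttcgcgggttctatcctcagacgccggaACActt

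The C/D RNAs Snord104 (chr11:106500993-106501062, plus strand, no host on its strand) and Snord22 (chr19:8725866-8725991, plus strand, over an exon of the long RNA gene Snhg1) have the D box, CTGA, in capitals.

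Snord104: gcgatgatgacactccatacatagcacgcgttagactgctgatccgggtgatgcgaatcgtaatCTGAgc

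Snord22: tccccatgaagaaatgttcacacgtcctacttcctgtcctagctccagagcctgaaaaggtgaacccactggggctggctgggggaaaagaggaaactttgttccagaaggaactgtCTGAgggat

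The U1 gene Gm22513 (chr12:54696782-54696945, plus strand) has in capitals the stretch near its 5′ end that pairs with 5′ splice sites, and the U4 gene Gm24265 (chr5:115489459-115489599, plus strand) the first 10 bases, by which it was assigned to U4.

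Gm22513: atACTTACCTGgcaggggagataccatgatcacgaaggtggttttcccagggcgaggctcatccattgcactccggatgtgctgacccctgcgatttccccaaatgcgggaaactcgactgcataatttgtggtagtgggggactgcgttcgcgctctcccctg

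Gm24265: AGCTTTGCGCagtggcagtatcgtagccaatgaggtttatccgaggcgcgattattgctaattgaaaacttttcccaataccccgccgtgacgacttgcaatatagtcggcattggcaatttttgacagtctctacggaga

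The letters ACA occur in the last 9 bases of 46.8% of all 1485 snoRNA genes of the table that have a transcript sequence, and TGATGA in the first 25 together with CTGA in the last 20 bases occur in 20.8%, searched on the transcript strand. Genes were assigned to H/ACA or C/D from their names and from these letters, so the share of ACA among the H/ACA genes is not a finding.

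Summed over all 681 annotated H/ACA snoRNA genes, with no filter, H/ACA RNA made up 29.7, 33.5 and 422 CPM in the low control libraries 1 to 3 and 189 CPM in the low miR-106b library 4. In the high group it made up 2897 CPM in control replicate 4 and 1855, 2573 and 1007 CPM in miR-106b replicates 1 to 3. The groups did not overlap, and the means were 2083 ± 839 and 169 ± 185 CPM (SD, n = 4 each), a ratio of 12.4. The low mean rests much on control 3, and without that library the ratio was 24.8. The summed level was 90.0 to 99.2 CPM in the polyA control libraries, so low controls 1 and 2 lay below polyA RNA and the other 6 Ago2-IP libraries above it. Within the control transfection alone, all snoRNAs together were 13.9 times higher in replicate 4 than the mean of replicates 1 to 3, and within miR-106b 8.49 times higher in replicates 1 to 3 than in replicate 4. The control ratio also rests much on control 3. All snoRNAs summed to 55.1, 65.9 and 605 CPM in controls 1 to 3 and to 3373 in control 4.

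**Figure D1:**
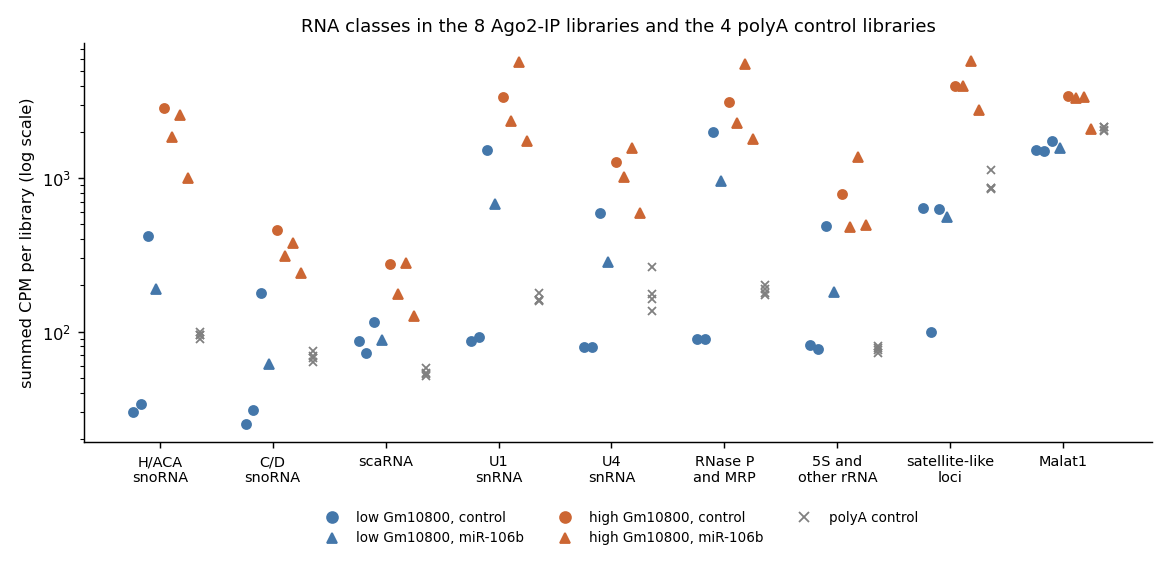
Summed CPM of 9 RNA classes (log axis) in each Ago2-IP library, with low-Gm10800 libraries in blue, high ones in orange, control transfection as circles and miR-106b as triangles, and the 4 polyA control libraries as crosses. H/ACA snoRNAs run from 29.7 to 422 CPM in the low and from 1007 to 2897 CPM in the high libraries. For RNase P and MRP 1 low library, control replicate 3, stands above a high one. Summed ribosomal RNA genes overlap too, with low control replicate 3 at 491 CPM and high miR-106b replicate 1 at 483 CPM.

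Values of single genes are CPM after TMM scaling (normalized CPM). Snora33 was at 0.285, 0.560 and 8.62 normalized CPM in low controls 1 to 3 and at 5.25 in low miR-106b 4, against 88.2 in high control 4 and 66.8, 77.2 and 30.4 in high miR-106b 1 to 3. Snora68 gave 0.856, 1.40, 20.7 and 6.71 in the same low libraries and 180, 124, 154 and 56.2 in the high ones. In both, controls 1 and 2 were near the limit of 3 counts, control 3 and miR-106b 4 lay between them and the high group, and the high libraries did not overlap the low ones. The fitted log2 differences were 4.15 and 4.10. Gm26397 had the same order of low libraries at 0.285, 0.560, 24.8 and 16, and reached 256, 147, 204 and 66.3 in the high libraries, a log2 difference of 4.02. Snora57, the most abundant of these H/ACA RNAs, was at 2.85, 1.68, 79.7 and 30.9 in the low and at 472, 331, 458 and 176 in the high libraries. As in the others, control 3 was the highest of the low libraries and the groups did not overlap.

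Of 35 H/ACA snoRNAs that passed the filter, 32 were higher, and their log2 differences ran from 2.44 to 4.69 with a median of 3.87. The 12 genes with the largest difference at a mean of at least 5 CPM were H/ACA RNAs: the snoRNAs Gm23105 (log2 difference 4.6), Gm25117, Gm26493, Gm22748, Snora33, Snora21, Snora68, Snora47, Gm26397, Gm24044 and Gm23442 (3.97) and the scaRNA Gm25492 (4.03). Of these 12, 6 (Gm23105, Gm26493, Gm22748, Snora21, Gm25492 and Gm24044) passed the filter only through the miR-106b group, 3 of whose 4 libraries are high, so their place is partly fixed by the filter. The order also depends on the prior count: with a prior count of 2, Gm23105 was at 3.54 and Gm26493 at 3.38, below Snora68 (4.01), Snora33 (3.97) and Snora47 (3.92). Gm23105 rested on few counts in the low group, where the libraries gave 0.285, 0, 1.35 and 0 CPM, and stood at 13.8, 12.4, 12 and 5.49 in the high group. The 3 H/ACA snoRNAs that were not called higher had log2 differences of 2.44 (Gm22488), 2.72 (Gm25291) and 3.80 (Snora62), and in each a low library lay at or above a high one. For Snora62 these were control 3 at 2.15 and miR-106b 3 at 1.94 CPM.

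A filter that asks for 3 of 4 libraries of a transfection group can let a gene in through the 3 high libraries of the miR-106b group alone. This was so for 30 of the 62 snoRNAs and scaRNAs that passed, which therefore could hardly have failed to differ. Among the 27 snoRNAs that passed through another group as well, 24 were higher, made up of 16 of 16 H/ACA and 8 of 11 C/D RNAs, and so were 2 of 5 scaRNAs. Of the 17 snRNAs, 4 passed through the miR-106b group alone and 3 of these were higher, which leaves 7 of 13. Of the 15 ribosomal RNAs, 7 did and 4 of these were higher, which leaves 1 of 8, n-R5s2. The sums over all annotated genes do not depend on the filter.

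The C/D snoRNAs differed less. Their sum over 338 genes was 24.8, 30.7, 178 and 61.1 CPM in low controls 1 to 3 and miR-106b 4 and 463, 312, 377 and 241 CPM in high control 4 and miR-106b 1 to 3, a ratio of means of 4.72, or 8.96 without control 3. Of 16 that passed, 11 were higher, with a median log2 difference of 2.23 and a range of 0.27 to 3.89. Snord22 was at 3.71, 7.56, 71.1 and 18.4 in the low and 153, 108, 166 and 85.7 in the high libraries, where control 3 came close to the lowest high library. Snord104 was at 0.570, 1.12, 1.35 and 1.46 in the low and 26.7, 8.16, 13.2 and 12 in the high libraries, and unlike Snord22 it was not raised in control 3. Snord49a, from 0.840 to 2.0 in the low and 0.323 to 2.85 in the high libraries, overlapped. Of the scaRNAs, Scarna6, which passed the filter only through the miR-106b group, had a log2 difference of 2.57, while Scarna2 (0.14, at 58.5 ± 3.21 CPM in the low and 63.4 ± 14.4 in the high libraries, SD, n = 4 each) overlapped.

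**Figure D2:**
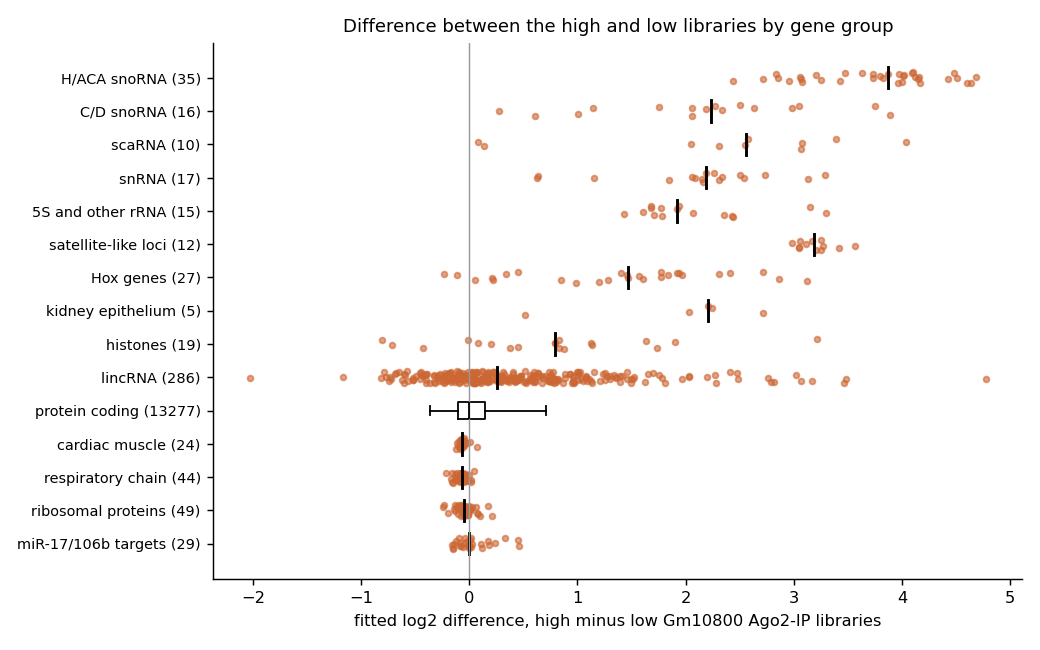
Fitted log2 difference, high minus low libraries, for each gene of 15 groups (numbers of genes in parentheses), with the median as a black bar and a box of quartiles with whiskers at the 5th and 95th percentiles for protein coding genes. The H/ACA snoRNAs centre on 3.87, the satellite-like loci on 3.19 and the C/D snoRNAs on 2.23, and the cardiac, respiratory chain and ribosomal protein genes lie close to 0.

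Host genes did not share the difference. Of the 62 snoRNAs and scaRNAs, 45 lie in an intron, 9 overlap an exon and 8 have no host on their strand, and for 51 the host passed the filter. The host differences had a median of -0.05 on the log2 scale and ran from -0.33 to 1.05. No host was separated with the high libraries above the low, and in all 51 cases the small RNA differed more than its host, which for 27 of them the filter largely fixed. The other 24, which passed through another group as well, also lay above their hosts. Rps12, the host of Snora33, was at 166 ± 4.45 CPM in the low and 162 ± 12.1 in the high libraries (SD, n = 4 each), a log2 difference of -0.02. Tomm20, which encodes an import receptor of mitochondria and holds Gm26397, was at 41.9 ± 2.12 and 40.8 ± 2.78. The hosts over 1.5-fold were Taf1d (1.05), Pawr (0.83) and Haus6 (0.63). The reads are 50 bases long and carry no strand, so a read of unspliced host RNA over the small RNA cannot be told from the small RNA itself. Of the 62 genes, 20 share a stretch of 50 bases with another small-RNA gene and 11 with the transcript of a longer gene, and counts of those can be split between copies.

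**Figure D3:**
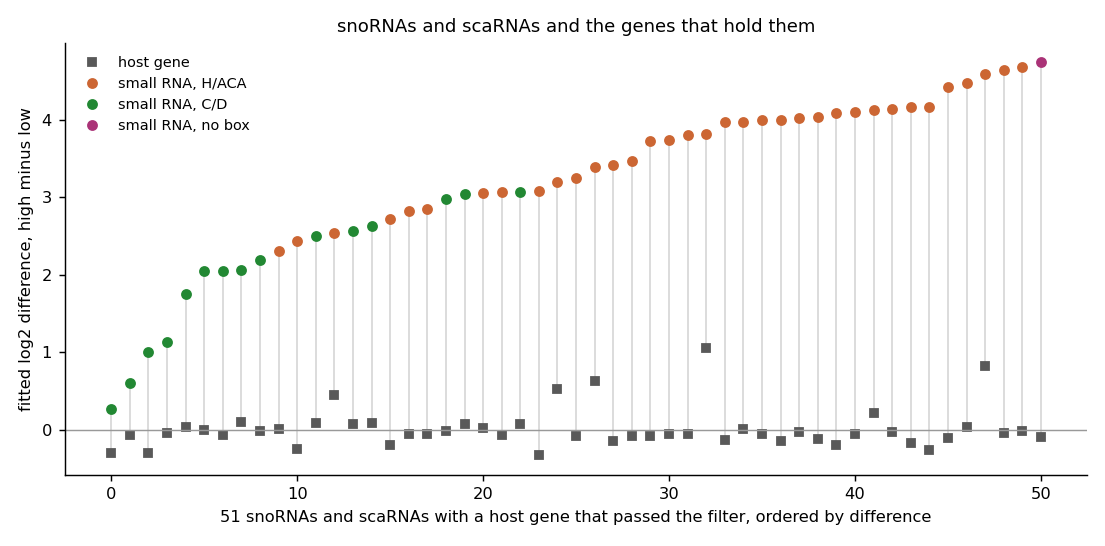
Fitted log2 difference, high minus low, of the 51 snoRNAs and scaRNAs whose host gene passed the filter (circles, coloured by box class) joined to the difference of the host (grey squares), ordered by the small RNA. The hosts centre on -0.05 and every circle lies above its square.

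The spliceosomal RNAs formed a gradient rather than 2 sets. Over 32 U1 genes the sum was 86.2 and 92.4 CPM in low controls 1 and 2, 677 in low miR-106b 4 and 1524 in low control 3, followed by 1741 in high miR-106b 3, 2366 in miR-106b 1, 3408 in control 4 and 5713 in miR-106b 2. The highest low library was thus closer to the lowest high one than to any other low library. The ratio of the means was 5.56, or 11.6 without control 3. Most of this came from Gm22513, the U1 gene shown above, at 79.6, 86.8, 1424 and 639 CPM in the low and 3265, 2248, 5487 and 1634 in the high libraries, and 26 other small-RNA genes share a stretch of 50 bases with it. U4, which pairs with U6 before the spliceosome is activated, summed to 79.4, 79.6, 590 and 284 CPM in the low and 1287, 1025, 1567 and 597 in the high libraries, where control 3 and miR-106b 3 were nearly level. Of the 2 U4 genes Gm24265 was higher, with 320 CPM in control 3 against 329 in miR-106b 3, and Gm24407 was not, with 267 in both libraries. Rnu12, the U12 RNA of the minor spliceosome, was at 7.03 ± 0.706 CPM in the low and 11.1 ± 3.54 in the high libraries (SD, n = 4 each) and overlapped.

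RNase P RNA (Rpph1) was at 62.8, 70.3, 1702 and 811 CPM in the low libraries and at 2674, 1916, 4806 and 1558 in the high ones, so that control 3 exceeded miR-106b 3. RNase MRP RNA (Rmrp) overlapped in the same way, and neither was called higher although both log2 differences (2.05 and 1.95) exceeded 1.9. Rn7sk, the 7SK RNA that restrains transcription elongation, was higher by 1.09 (50.5 ± 14.8 against 107 ± 27.7 CPM, SD, n = 4 each). Of 15 5S ribosomal RNA genes and alike that passed, 5 were higher, 4 of which had passed the filter only through the miR-106b group. Without control 3 all 15, and both RNase P and MRP RNAs, were higher. n-R5s2 was at 12.3, 11.8, 68.7 and 35.0 in the low and 209, 80.4, 287 and 108 in the high libraries. It shares stretches of 50 bases with 45 other small-RNA genes and with 1 longer gene, and the authors had removed reads of ribosomal RNA before counting. All snoRNA, scaRNA, snRNA and RNase P and MRP counts together took 0.0420%, 0.0422%, 0.491% and 0.229% of the low libraries and 1.16%, 0.816%, 1.63% and 0.562% of the high ones, against 0.0736% to 0.0882% of the polyA control libraries.

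The libraries were not ordered alike in each class. Among the 32 higher H/ACA snoRNAs, control 4 was the highest library for 25 and control 3 the highest low library for 29. Of these 32, 16 had passed the filter only through the miR-106b group, and among the other 16 the counts were 13 and 16. Among the 10 higher snRNAs, miR-106b 2 was the highest for 9 and control 3 the highest low library for 9, and among the 7 of them that passed otherwise for 6 and 6. Relative to the mean of controls 1 and 2, control 3 was raised by a median of 2.31 on the log2 scale (0.5 added to each CPM) for the H/ACA snoRNAs, by 3.04 for the snRNAs and by 0.17 for the 217 higher coding genes outside the satellite-like loci. The same medians in control 4 were 5.15, 4.06 and 0.98. Over the members that passed otherwise (16, 7 and 204) they were 3.21, 3.08 and 0.17 in control 3 and 6.18, 4.19 and 0.96 in control 4. Because a gene was called higher only where control 3 lay below every high library, a gene with a small difference had to have a low value in control 3, so the classes cannot be compared by these medians. Over the 10562 genes besides Gm10800 whose Ago2-IP mean reached 5 CPM, the first principal component took 48.8% of the variance and placed control 3 (-2.24) and miR-106b 4 (-12.9) between controls 1 and 2 (-24.3 and -31.9) and the high libraries (9.71 to 26.0).

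The satellite-like loci, a list made with the resemblance to Gm10800 known, cannot be taken as independent of the rule. Of 13 in the table besides Gm10800, 12 passed and all 12 were higher, with log2 differences of 2.98 to 3.57 and a median of 3.19. Their sum was 644, 99.4, 633 and 556 CPM in low controls 1 to 3 and miR-106b 4 and 3977, 3989, 5847 and 2809 CPM in high control 4 and miR-106b 1 to 3. Unlike the short nuclear RNAs, control 3 was level with control 1 and with miR-106b 4, and control 2 alone was lower. In 11 of the 12, some stretch of 50 bases is also found in Gm10800 and in another of the loci, and at the median 56.1% of the 50-base stretches of a locus are shared with another. Gm26870 shared none, compared on the transcript strand only, and had a log2 difference of 3.17. Its span (chr9:3000282-3038313) holds Gm11168 and Gm10717, and the libraries record no strand. Its counts are therefore not taken as independent of theirs. The stretch held by the most loci, 10, shows how one read can match many of them.

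Stretch shared by 10 loci: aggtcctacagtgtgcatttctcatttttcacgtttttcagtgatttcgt

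Malat1 is given here as CPM of the library total, without TMM scaling. Malat1 was at 1530, 1516 and 1745 CPM in low controls 1 to 3 and at 1589 in low miR-106b 4, against 3462 in high control 4 and 3356, 3373 and 2098 in high miR-106b 1 to 3. The ratio of the means was 1.93, and the polyA control libraries were at 2023 to 2156 CPM, with miR-106b 3 inside that range and the other high libraries above it. Of 12 nuclear long RNAs that passed, 3 were higher (2.87% of all genes were): Malat1, Kcnq1ot1, an antisense RNA of an imprinted locus that was at 59.3, 30.8, 49.8 and 42.9 CPM in the low and 63.5, 90.1, 93.0 and 67.9 in the high libraries, and Snhg11. Neat1, which builds paraspeckles, was at 1188 ± 18.3 in the low and 1187 ± 43.6 CPM in the high libraries (SD, n = 4 each). The median of the list was -0.04.

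Outside the satellite-like loci, 217 coding genes were higher, with a median log2 difference of 1.23, and 84 of these had a mean of at least 5 CPM. The filter was passed only through the miR-106b group by 13 of them, and the median of the other 204 was 1.19. The following genes were picked after their values were seen, for their levels or their known function. Luc7l3, a splicing factor of the U1 particle, was at 21.7, 22.7, 22.4 and 24.2 CPM in the low and 73.6, 62.5, 42.7 and 34.3 in the high libraries. Ppig, a cyclophilin of nuclear speckles, gave 24, 18.5, 24 and 25.4 and then 64.8, 62.9, 50 and 36.2. In both the low libraries lay close together, control 3 included, the groups did not overlap, and miR-106b 3 was the lowest high library. Rsrc1, also a splicing protein, was higher by 1.15.

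Ncl, which encodes nucleolin, was at 128, 153, 145 and 155 CPM in the low and 307, 324, 264 and 199 in the high libraries, a log2 difference of 0.91. Nop58, a core protein of C/D snoRNA particles, was higher by 1.04, Znhit6, which helps to assemble those particles, by 1.39 and Esf1, which acts in ribosomal RNA processing, by 1.23. Cald1, an actin-binding protein of smooth muscle and other contractile cells, was at 110, 104, 120 and 124 in the low and 404, 419, 347 and 209 in the high libraries. Akap12, a scaffold for protein kinase A, was at 101, 90.4, 166 and 123 and then 410, 398, 418 and 207, with a polyA control mean of 2403 ± 134 (SD, n = 4).

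Some higher genes, Akap12 among them, had far higher levels in polyA RNA than in Ago2-IP RNA. The polyA control mean was at least 4 times the Ago2-IP mean in 57 of the 217 coding genes (26.3%) and in 8.42% of all genes tested. Counted the other way, 63 of the 1254 genes with such a ratio were higher (5.02%), and, leaving out Gm10800 and 260 genes that passed the filter only through the miR-106b group, 161 of the 5829 genes whose polyA control mean lay below the Ago2-IP mean (2.76%). Among coding genes alone these were 57 of 1087 (5.24%) and 62 of 5154 (1.20%). Glis3, a zinc finger transcription factor, was at 10.3, 10.9, 38.5 and 16.6 CPM in the low and 50.1, 45.8, 50.9 and 44.6 in the high libraries, with a polyA control mean of 267 ± 6.51 (SD, n = 4). Hoxc6, a homeobox factor of body position, was at 0, 0.280, 4.04 and 1.17 and then 13.8, 6.60, 13.5 and 6.79, with 93.7 ± 7.02 in polyA controls. Both had control 3 as the highest low library. Of the 27 Hox genes that passed, 7 were higher, against 2.87% of all genes, and the median difference was 1.47; 25 of the 27 had the polyA ratio of at least 4. The ratio was below 4 for Fras1 and Npnt, whose polyA control means were 15.3 ± 0.863 and 32.8 ± 7.79 CPM (SD, n = 4). Fras1, a matrix protein of embryonic epithelia, was at 0.856, 0.560, 4.85 and 0.583 in the low and 15.1, 7.77, 20.8 and 9.05 in the high libraries, and Npnt, a matrix ligand of integrin in the developing kidney, at 1.43, 1.40, 5.66 and 3.21 and then 16, 12, 21.1 and 11.0.

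**Figure D4:**
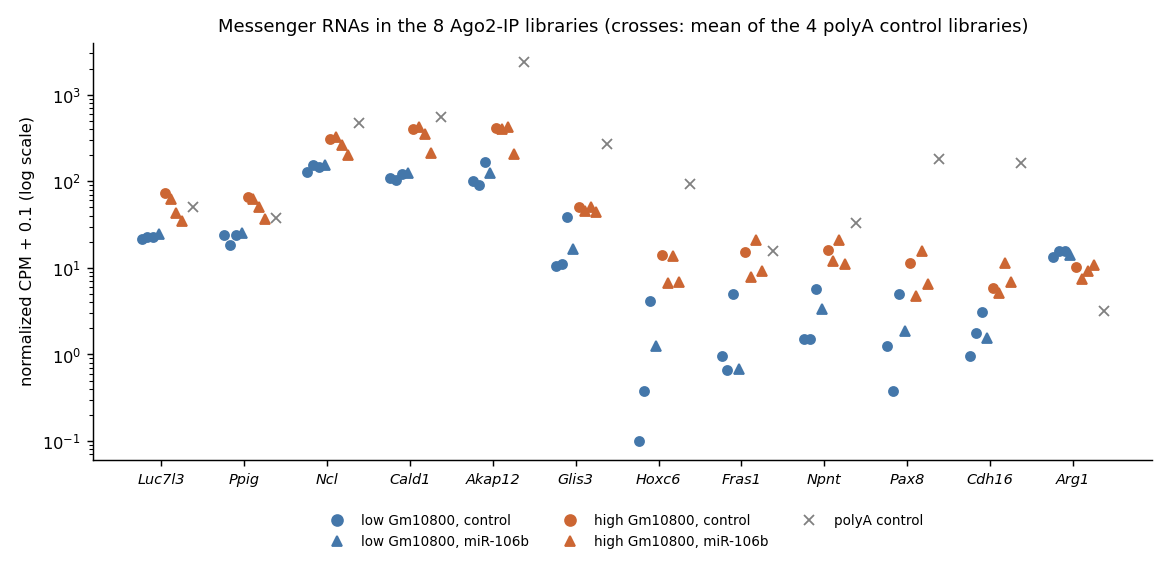
Normalized CPM plus 0.1 (log axis) of 12 coding genes in each Ago2-IP library, with low libraries in blue, high in orange, control as circles and miR-106b as triangles, and the mean of the 4 polyA control libraries as a cross. Luc7l3, Ppig and Cald1 are even over the 4 low libraries, Glis3, Hoxc6 and Fras1 are raised in low control replicate 3, and Arg1 is lower in the high libraries.

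Of 13 listed markers of kidney epithelium, 5 passed the filter, with a median log2 difference of 2.21. Lrp2 (2.71) and Cdh16 (2.03), an endocytic receptor and a kidney cadherin, were higher (2.87% of all genes were), and Pax2 (2.21), Pax8 (2.25) and Cubn (0.52) overlapped. Cdh16 was at 0.856, 1.68, 2.96 and 1.46 CPM in the low and 5.69, 5.05, 11.4 and 6.79 in the high libraries. Pax8, a transcription factor of the kidney lineage, was at 1.14, 0.280, 4.85 and 1.75 and then 11.4, 4.66, 15.5 and 6.46, where control 3 lay above miR-106b 1. The whole list summed to 5.43 to 12.2 CPM in the low and 17.4 to 47.5 in the high libraries, against 364 to 528 in the polyA controls, and 2 of its members, Slc34a1 and Kap, had 0 counts in Ago2-IP RNA. The part of these transcripts in the difference between the groups was not tested. In bulk RNA, fewer cells of a type and less RNA of that type per cell cannot be told apart.

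The 34 genes lower in the high libraries differed less than those higher, and 7 coding genes among them had a mean of at least 5 CPM. Iqgap2, a scaffold of the cytoskeleton, was at 6.85, 7.28, 11.6 and 8.17 CPM in the low and 6.57, 4.66, 5.56 and 3.23 in the high libraries, a log2 difference of -0.72. Arg1, which encodes arginase, was at 13.4, 15.7, 15.4 and 14 and then 10.1, 7.38, 9.07 and 10.7 (-0.64). In both the groups did not overlap, and for Iqgap2 the lowest low library, control 1, was just above the highest high one, control 4. The others among the 12 with the largest difference in this direction were Usp35 (-0.70), Mplkip (-0.69), Adam22 (-0.65), Plau (-0.60), Atf3 (-0.59), Tmem263, Itgb7, Rims4, Tmem200b and 4833420G17Rik (-0.56), where the last 5 were separated by less than 1.5-fold.

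The most abundant transcripts of the Ago2-IP libraries were little different. Myh6, a myosin of heart muscle, was at 40164, 40621, 39169 and 40501 CPM in the low and 38204, 37956, 37078 and 39075 in the high libraries, separated by a log2 difference of -0.08. Of 24 cardiac genes that passed, 7 were separated with the high libraries below, where 2.63% of all genes were, and none by 1.5-fold, with a median of -0.07. The same separation held for 11 of 44 nuclear genes of the respiratory chain, again with none by 1.5-fold. Medians were -0.07 for those 44 genes, -0.05 for 49 ribosomal protein genes, -0.05 for 14 endothelial and 15 leukocyte genes each, -0.03 for 10 fibroblast genes and -0.01 for 11 mitochondrial messengers, and no gene of these lists was higher. The medians were -0.01 for 29 reported targets of the miR-17 family, to which miR-106b belongs, 0.00 for 13 Argonaute and GW182 genes and -0.03 for 12 genes the study names for JG cells, and none of these was separated. Of 19 histone genes that passed, 1 was higher, Hist1h1e (1.90), a share near the 2.87% of all genes, and the median of the list was 0.80, which ran from 0.21 with at least 10 counts in every Ago2-IP library to 1.10 without control 2.

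The split is uneven over the comparison the labels make, that of transfections in Ago2-IP RNA, since 3 of 4 miR-106b libraries are high and 3 of 4 control libraries low. The transfected miRNA, mature mmu-miR-106b-5p, has in the RefSeq table the sequence below, with its seed (bases 2 to 8) in capitals.

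mmu-miR-106b-5p: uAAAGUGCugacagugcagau

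With transfection alone in the fit, edgeR's quasi-likelihood test of miR-106b against control called 0 of 14897 genes (0%) at an adjusted p of 0.05, the smallest adjusted p was 0.0965, and 826 genes had an unadjusted p under 0.05. DESeq2 called 2 genes and edgeR's likelihood ratio test 18, of which Gm26493, Snord104, Gm10719, Gm10721 and Gm10722 are snoRNAs or satellite-like loci. These classes hold 52 and 12 of the 14897 genes. Gm26493 passed the filter only through the miR-106b group, and the list of loci is not independent of the rule, so nothing is read from these names. With the split as a second term the quasi-likelihood test again called 0 genes (0%), with 654 at an unadjusted p under 0.05 and 0.0944 as the smallest adjusted p, and DESeq2 and the likelihood ratio test called 0. The median miR-106b difference of 52 snoRNAs was 0.50 on the log2 scale without the split and -0.62 with it, and over the 27 that passed the filter through another group as well 0.56 and -0.54. For 17 snRNAs it was 0.78 and -0.07, and over the 13 that passed otherwise 0.74 and -0.09. For the 12 satellite-like loci it was 1.20 and 0.07. For the 29 targets of the miR-17 family, to which miR-106b belongs, both medians were -0.01. Because 3 of 4 miR-106b libraries are high, a group that differs between high and low must shift when the split is in the fit and one that does not must stay, so these medians are a description and nothing is read from the shifts. Without miR-106b replicate 4 the fit without the split called 40 genes, 36 of them higher with miR-106b. That omission leaves only high libraries in the miR-106b group, so transfection and split nearly coincide. With the split as a term, the same omission called 0 genes.

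**Figure D5:**
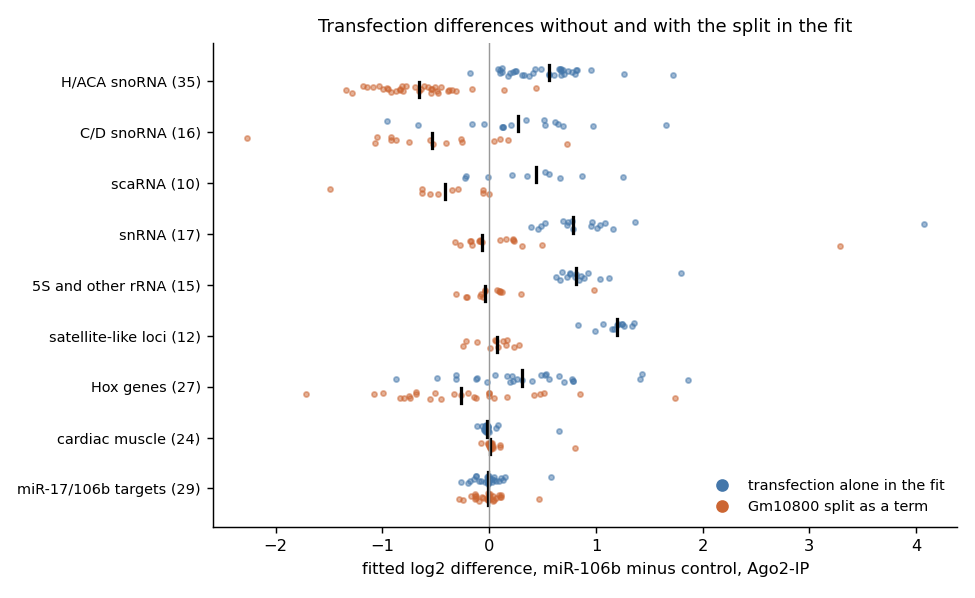
Fitted log2 difference of miR-106b against control in Ago2-IP RNA for the genes of 9 groups, with transfection alone in the fit (blue) and with the Gm10800 split as a second term (orange), and medians as black bars. The median of the snRNAs is 0.78 without and -0.07 with the split, and that of the miR-17 family targets is -0.01 in both, as the make-up of the split over the transfections fixes.

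The polyA libraries, which the rule did not use, gave a separate readout of transfection. Markers of other cell types moved with it: 23 of 24 cardiac, 12 of 14 endothelial, 13 of 15 leukocyte and 4 of 5 red cell genes rose, as did 9 of 10 fibroblast genes, of which the other fell, while of 5 genes of kidney epithelium 0 rose and 2 fell. Other lists moved too. Of 11 juxtaglomerular and mural genes 6 rose and 1 fell. All 44 nuclear respiratory chain genes and 24 of 25 of fatty acid oxidation rose. Against this, 46 of 49 cytosolic ribosomal protein genes and 23 of 23 E2F targets fell. The cardiac genes summed to 52476 to 90051 CPM with miR-106b against 27237 to 38267 in the controls. The part of these cell types in the calls below was not tested. In all, the same edgeR test called 6034 of 14897 genes (40.5%), of which 2836 rose with miR-106b (19%) and 3198 fell (21.5%). The balance depends on the scaling and on single libraries: 3163 rose and 2642 fell with DESeq2 size factors, and 2486 rose and 1640 fell without control 2, the fewest that fell with 1 library left out. Of 52 snoRNAs 0 rose and 4 fell (15 fell without miR-106b 3 and 2 without control 1, 3 or 4), but 25 of them, and 4 of 17 snRNAs, were under the filter in polyA RNA and could hardly be called there. Of the other 27 snoRNAs the same 4 fell, of the other 13 snRNAs and of 12 satellite-like loci none was called, and the sums moved in both directions within the miR-106b group. H/ACA RNA was at 42.6, 60.4, 127 and 48.7 CPM in polyA miR-106b replicates 1 to 4, and the satellite-like loci at 251, 888, 2660 and 2164. The miR-106b libraries thus lay on both sides of the 852 to 1135 CPM of the controls. Of the 217 higher coding genes 5 rose and 51 fell, and of the 204 that passed otherwise 4 and 51. With 1 polyA library left out 2 to 11 of the 217 rose and 31 to 61 fell. In the 57 with a polyA ratio of at least 4, 0 rose and 25 fell (43.9%), against 0 and 751 (69.1%) of the 1087 coding genes with that ratio. In the other 160, 5 rose (3.12%) and 26 fell (16.2%), against 2723 (22.3%) and 2335 (19.2%) of the 12190 other coding genes. Among the 51 that fell were Ncl, whose log2 difference was -0.93 with an SE of 0.157 (edgeR adjusted p = 0.000869), and Cald1, with -0.61 and an SE of 0.166 (edgeR adjusted p = 0.0107). The call of Cald1 was lost without polyA control 1, 2 or 3 (edgeR adjusted p = 0.0581, 0.071 and 0.0731). Of 27 Hox genes 0 rose and 16 fell, a share below the 69.1% of coding genes with a polyA ratio of at least 4, which 25 of them had. With 1 polyA library left out 0 or 1 rose and 9 to 20 fell (9 without control 1, 2 or 3).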

How the data were processed

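The deposited values were whole-number counts per gene for 46078 genes in 16 libraries. According to the paper and the submitters' processing notes, ribosomal RNA reads were discarded by the authors, who mapped what was left to GRCm38 with TopHat2 (version 2.0.10 in the notes) and then counted reads on genes with HTSeq, with no normalization in the table. Annotated positions and transcripts were those of GENCODE M21.

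The filter, worded after the methods of the study, asked for 1 CPM or more in 3 or all 4 replicates of some group and left 14897 genes here, which is not the number the study gives, and the cause was not tested. Counts were scaled by TMM within the Ago2-IP and within the polyA libraries in edgeR 4.0.16 (R 4.3.3). High-minus-low differences came from a fit with the split alone and a prior count of 0.125. Sums over classes used CPM of the library total. Transfections were compared with edgeR's robust quasi-likelihood F test, two-sided, adjusted by Benjamini-Hochberg over all genes, threshold 0.05, with DESeq2 1.42.0 and edgeR's likelihood ratio test as alternatives. Replicates are separate cultures. The tests were checked on simulated counts. Those for the Ago2-IP transfection fits held no difference between high and low libraries. They therefore do not show how the tests behave where that difference is present.

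Genes were named by rule: the 12 largest separated differences in each direction at a mean of at least 5 CPM, up to 4 genes of each list, the genes the study names for JG cells, and any gene called in the fit with the split, of which there were none. The members, the lists and the added genes were chosen with earlier results of these data known. Of 27 lists, those with no median in the report had -0.33 (4 sex chromosome genes), -0.12 (5 red cell), -0.09 (11 juxtaglomerular and mural, 20 interferon), -0.08 (25 fatty acid oxidation), -0.07 (25 immediate early), -0.05 (17 heat shock), -0.04 (23 E2F targets, 20 very long genes), -0.01 (16 collagens and matrix), 0.10 (17 mitochondrial ribosomal and transfer RNAs), 0.24 (14 ATF4 response) and 1.25 (9 small RNAs without a tail). Alternatives were other scalings, filters, folds, prior counts and tests, transfection or a replicate block as a term, and leaving out libraries. One host gene is not reported here.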

Additional observations from a re-analysis of the deposited data

Results flagged for a closer look

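Values were singled out where 1 of the 4 libraries of a group stood apart from the other 3 by a gap above the 95% limit of Dixon's test, which chance gives in about 1 of 20 groups. This held for 30 of 214 groups. Most were Ago2-IP control replicate 4, the only control library in the high group, set against controls 1 to 3. In it the satellite-like loci summed to 3977 CPM (99.4 to 644 in the others), Malat1 to 3462, H/ACA snoRNAs to 2897 and the nuclear long RNAs to 5270, while the fibroblast list was lower at 20260. Among single genes in that library, the small RNAs were Gm23105 at 13.8 normalized CPM, Gm25117 at 67, Gm26493 at 10.5, Gm22748 at 32.4, Snora33 at 88.2, Snora21 at 63.7, Snora68 at 180, Snora47 at 99.4, Gm25492 at 22.1, Gm26397 at 256, Gm24044 at 22.5, Gm23442 at 258, Snora57 at 472 and Snord104 at 26.7. The satellite-like locus Gm11168 was at 272 there, and the coding genes Luc7l3 at 73.6, Ppig at 64.8, Ncl at 307 and Cald1 at 404. The split was made from these libraries, so this pattern adds no support to it.

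In Ago2-IP control replicate 3, Iqgap2 stood above the other controls at 11.6 CPM and the collagen and matrix list at 12012. The interferon list was lowest in Ago2-IP miR-106b replicate 2, at 422 CPM. In polyA RNA, control replicate 4 was above the other controls in the satellite-like loci, at 1135 CPM, and in U1 RNA, at 177 CPM, and miR-106b replicate 1 was highest in the fibroblast list, at 32089 CPM.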

How the results depend on the processing

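The 428 higher genes became 120 with at least 10 counts in every Ago2-IP library, 643 with no minimum fold and 922 with both intermediate libraries (control 3 and miR-106b 4) left out, an alternative chosen after seeing the data, and 460 to 672 with 1 library left out. The number was 658 without control 3, 672 without control 4 and 645 without miR-106b 3. A filter of at least 10 counts takes out genes near 0 in a low library. Under it 6 snoRNAs, 1 scaRNA, 6 snRNAs, 1 ribosomal RNA and 82 coding genes were higher. The main fit had 44, 6, 10, 5 and 229. The 34 lower genes became 63 with no filter, 6 with at least 10 counts, 15 at 2-fold, 392 with no minimum fold, 179 without both intermediate libraries and 67 to 99 with 1 left out. Differences of named genes moved beyond the spread of replicates in 49 values, 38 of them with both intermediate libraries left out, and 10 medians of gene lists did, 5 of them under that setting, with no called value changing sign.

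Genes called for miR-106b in Ago2-IP RNA numbered 20 with no filter, 2 with at least 10 counts, 2 with DESeq2, 18 with the likelihood ratio test and 0 to 40 with 1 library left out (8 without control 4, 4 without miR-106b 1, 40 without miR-106b 4). With the split as a term they numbered 2 with no filter, 4 with at least 10 counts and 0 to 7 with 1 left out (7 without miR-106b 1, 4 without miR-106b 2). Same-numbered Ago2-IP libraries correlated at -0.09, -0.45, -0.01 and -0.56, but each such pair holds a high and a low library, so these values cannot show whether the numbers pair cultures. A replicate block called 1 gene, with or without the split, and gave 429 higher and 35 lower genes. In polyA RNA 4126 to 7326 genes were called under any alternative, and the share higher was 47.0% as first fitted, 54.5% with DESeq2 scaling and up to 60.3% without control 2. Depth limits the low group, where Gm23105 and Snora33 were under the limit of 3 counts in controls 1 and 2.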
